A study of Mus musculus with 6 samples.

Results

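The nuclear-encoded subunits of the mitochondrial respiratory chain and ATP synthase were examined in intracranial mG7080 tumors of WT and Esm1 KO hosts. They were chosen by gene symbol alone (Nduf subunits of the A, B, C, S and V series, Sdha to Sdhd, and the Uqcr, Cox4 to Cox8 and Atp5 genes), which gave 82 of the 16729 genes in the table. Complex I held 35 of them, complex II 4, complex III 8, complex IV 18 and complex V 17. Ndufa4 and its paralog Ndufa4l2 were placed with complex IV, where the Ndufa4 protein is now known to reside. Atp5s, Atp5sl and Cox7a2l also carry names that fit the rule, although they are better known as an assembly or supercomplex factor than as constant subunits.

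The mG7080 line is a gliomasphere culture from a mouse glioblastoma model with mutations that include p53 and Nf1. Its cells were injected intracranially into female C57BL/6 hosts that were either WT or Esm1 KO, and total RNA of the resected tumors was sequenced from 3 hosts per group. Esm1 encodes Endocan, a proteoglycan secreted by activated endothelial cells, and it was deleted in the host only, so the injected tumor cells carried the same genotype in both groups. The age range of the hosts differs between the methods and the reporting summary of the study. A single tumor line was used, and each library holds tumor and host RNA together, so that fewer cells of a type and less RNA per cell cannot be told apart in any comparison.

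The respiratory chain passes electrons from NADH (complex I) or succinate (complex II) through coenzyme Q, complex III, cytochrome c and complex IV to oxygen. Complexes I, III and IV pump protons across the inner mitochondrial membrane, and complex V uses the resulting gradient to make ATP. Most subunits are encoded in the nucleus and imported, while a few catalytic ones of complexes I, III, IV and V come from mitochondrial DNA. Neurons depend heavily on this pathway, and glioma cells use it beside glycolysis.

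The libraries held 17632070 to 22241832 counts on genes, and 1 read was worth 0.0445 to 0.057 CPM (counts scaled by library size and TMM factors). Counts of Esm1 itself were 25, 21 and 82 in the WT libraries (1 to 3, in this order) and 1, 24 and 4 in the KO libraries. KO 2 thus had about as many reads of the deleted gene as WT 1 and WT 2 (1.07 CPM, against 1.19 and 1.09), and is called here the library labelled KO 2. The injected cells carry Esm1, and their part in these counts was not tested. Neuron and proliferation genes also differed between libraries. Their groups overlapped, and edgeR called 0 of either list over 6 libraries, as of all genes. The summed CPM of 16 neuron genes was 3125 to 7815 in WT libraries and 6795 to 19550 in KO libraries, whereas 20 proliferation genes gave 1886 to 3349 and 112 to 2079. The library labelled KO 2 was the lowest of the KO libraries for the neuron genes and the highest for the proliferation genes, so values are given with and without it. A second comparison used only KO 1 and KO 3 against WT 1 and WT 2, the libraries of the RNA-seq results table of the study.

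The promoters of Cox8a and Cox7b2, at the ends of the range described below, and of Sdha, the highest of complex II, are shown. Each runs from 250 bases before the RefSeq start of transcription to 25 bases after it, thus covering promoter and the start of exon 1, on the minus strand of GRCm38.p6. Cox8a is at chr19:7217592-7217866, Sdha at chr13:74350216-74350490 and Cox7b2 at chr5:71548181-71548455. Capitals mark the NRF1 motif CGCANGCGC or the ETS motif CCGGAAG (read on either strand), the motifs of nuclear respiratory factor 1 and of the ETS family that includes Gabpa.
Cox8a: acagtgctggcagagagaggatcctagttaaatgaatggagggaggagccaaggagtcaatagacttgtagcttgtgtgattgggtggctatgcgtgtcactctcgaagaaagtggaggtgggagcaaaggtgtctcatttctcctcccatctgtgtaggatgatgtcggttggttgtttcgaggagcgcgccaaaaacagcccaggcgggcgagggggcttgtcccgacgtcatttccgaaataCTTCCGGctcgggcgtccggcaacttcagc
Sdha: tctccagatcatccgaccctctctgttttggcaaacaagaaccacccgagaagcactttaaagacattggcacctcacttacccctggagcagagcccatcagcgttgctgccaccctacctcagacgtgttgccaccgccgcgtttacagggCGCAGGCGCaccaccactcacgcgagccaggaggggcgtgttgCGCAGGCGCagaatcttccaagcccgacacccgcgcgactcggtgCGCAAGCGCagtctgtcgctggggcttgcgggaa
Cox7b2: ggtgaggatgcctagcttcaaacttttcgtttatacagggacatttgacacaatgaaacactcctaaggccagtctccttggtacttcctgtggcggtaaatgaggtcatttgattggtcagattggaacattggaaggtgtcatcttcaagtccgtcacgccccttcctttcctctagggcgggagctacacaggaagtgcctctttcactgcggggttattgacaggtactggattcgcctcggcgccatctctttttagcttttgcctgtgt

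Sdha, the flavoprotein of complex II, had 3 NRF1 motifs in this stretch, starting 97, 54 and 9 bases before the start. Cox8a had 1 ETS motif across its start and no NRF1 motif, and Cox7b2 had neither. Over windows from 250 bases before to 50 bases after the start, 26 of 74 windows of 68 members (35.1%) held the NRF1 motif, compared to 11.0% of the windows of all genes in the table. The YY1 motif AAGATGGC was in 16.2% of members' windows and 3.67% of those of all genes, and the ETS motif in 21.6% and 14.5%. The SP motif GGGCGG was in 39.2% of members' windows and 57.7% of those of all genes. By complex, the NRF1 motif was in 10 of 33 windows of complex I, 2 of 3 of complex II, 3 of 5 of complex III, 1 of 13 of complex IV and 10 of 20 of complex V. The 24 members with the NRF1 motif had a median log2 fold change (KO over WT, 6 libraries, TMM scale) of 0.22. The 44 with a window but no such motif had 0.10, and the 14 without a window had 0.15. The motif was unevenly spread over the complexes, and a link between motif and change was not tested. A match describes letters only, not binding.

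Levels between genes were compared by FPKM, which accounts for transcript length. In WT tumors, Atp5b, the catalytic beta subunit of ATP synthase, had the highest level of the 82 at 527 ± 19.9 FPKM (SD, n = 3). It was followed by Cox4i1, the common form of subunit 4 of cytochrome c oxidase, at 488 ± 25.7, and their spreads overlapped. Cox6a1 (393 ± 47.8), Ndufa4 (365 ± 44.3), Cox6c (341 ± 34.3), Uqcrq (336 ± 70.7) and Cox8a (322 ± 21.6) came next, each overlapping its neighbor in this order within 1 SD. The complex II subunits, all of which are needed in equal amounts in the protein, lay close together near the middle of the order, from 81.4 ± 12.2 FPKM for Sdhd to 99.4 ± 14.6 for Sdha. The lowest were Cox6b2, Cox4i2, Ndufa4l2, Cox6a2 and Cox7b2, at 1.86 to 4.36 FPKM. These are isoforms known from testis, lung, hypoxic cells or muscle, and the cells that gave their reads here were not tested.

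Some constant subunits were also listed at low levels. Ndufs5 was at 5.42 ± 0.77 FPKM, Ndufb4 at 14.6 ± 1.32, Atp5l at 15.3 ± 2.48 and Cox7c at 31.2 ± 6.06, far below their partner subunits. In the GENCODE transcripts of GRCm38, 31.1% of the 50-base stretches of Ndufs5, 37.0% of those of Ndufb4, 68.5% of Atp5l and 27.9% of Cox7c also occurred in another gene, mostly a processed pseudogene. The study counted uniquely mapped reads, so the low levels of these genes are uncertain. Of the 82 members, 9 shared over 25% of such stretches, with a median of 51.6 FPKM, 28 shared fewer, with a median of 140 FPKM, and 45 shared none, with a median of 95.3 FPKM. The level thus did not fall steadily with sharing, and Cox5b shared 25.9% and stood at 213 FPKM. Counting by strand is not stated, and 26 members overlap a gene on the opposite strand, among them Cox4i1, Ndufb11 and Atp5j.

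**Figure D1:**
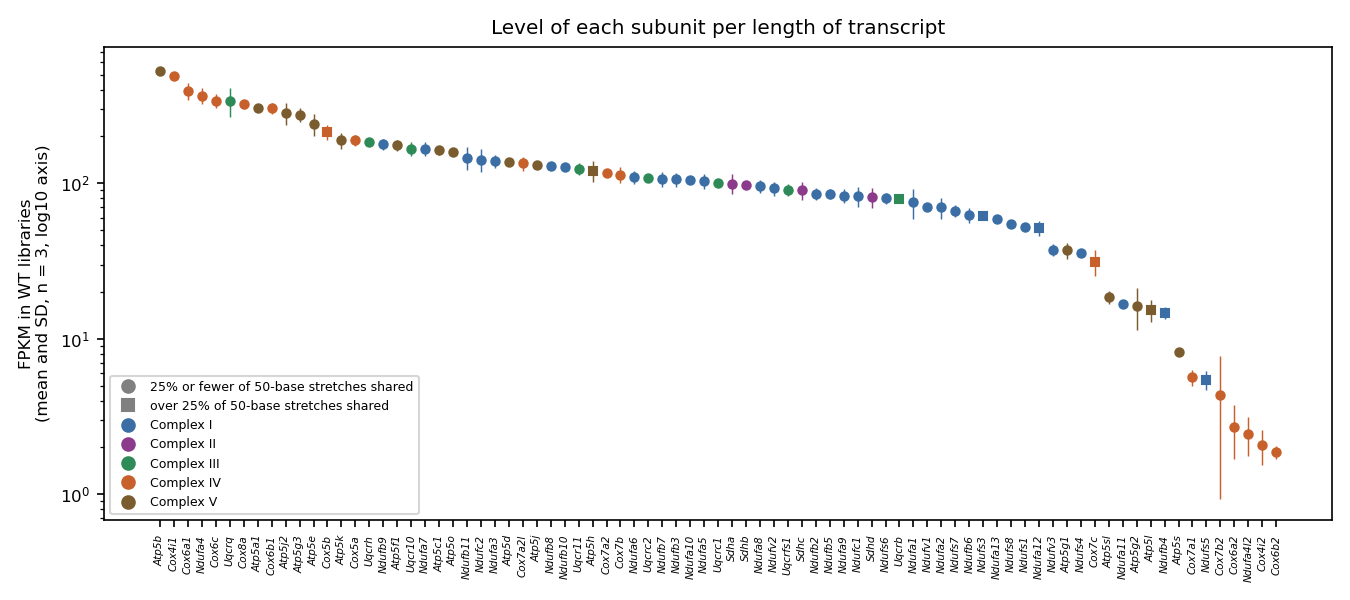
Level of 81 subunits per length of transcript in WT tumors, as FPKM on a log10 axis (mean and SD, n = 3), ordered from highest to lowest and colored by complex. Squares are the 9 genes with over 25% of their 50-base stretches in another gene; most genes lie near 100 FPKM, and tissue-restricted complex IV isoforms make up most of the low end, down to 1.86 FPKM for Cox6b2.

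As a set, the subunits were kept at nearly the same level in tumors of both hosts. They took 0.871%, 0.922% and 0.943% of all counts in WT 1, WT 2 and WT 3, and 0.881%, 0.940% and 0.849% in KO 1, the library labelled KO 2 and KO 3, so the groups overlapped. After TMM scaling, their summed level was 8566 ± 217 CPM in WT and 9471 ± 490 CPM in KO tumors (SD, n = 3), and here each KO library exceeded each WT library. The direction of the set thus depended on the scaling. The median log2 fold change of the 82 was 0.13, against -0.02 for all 16166 genes tested, but scaling by total count alone gave -0.04 against -0.17. Relative to the median of all genes, the members were higher by 0.15 and 0.13, respectively. Their changes were small. Of the 82, 75 (91.5%) lay within 0.5 of 0 on the log2 scale, compared to 48.2% of all genes tested and 52.5% of the 11585 genes with a mean of at least 10 CPM.

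**Figure D2:**
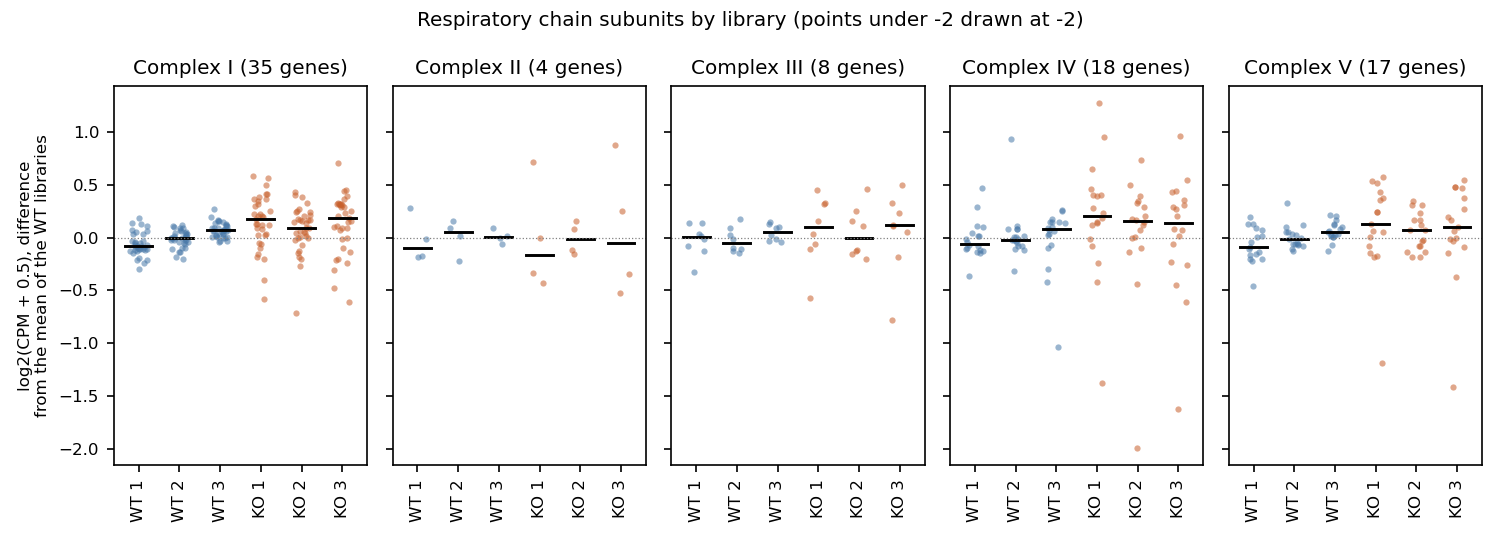
Each subunit (point) in each library as log2(CPM + 0.5), as the difference from the mean of the WT libraries, with the median per library as a bar; blue is WT, orange KO, and KO 2 is the library labelled so. Medians over all 82 lie between -0.07 and 0.07 in WT libraries and between 0.09 and 0.16 in KO libraries. The points spread more widely in KO 1 and KO 3 than in WT libraries, whose own mean is the reference and draws their points towards it. All genes tested also spread more widely in KO 1 and KO 3.

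No subunit passed the test over all 6 libraries. In edgeR, with p-values of the quasi-likelihood test adjusted by Benjamini-Hochberg, 0 members were lower and 0 higher, as for all genes tested (0.0% in each direction), and the smallest adjusted p of any member was 0.184. At an unadjusted p under 0.05, 1 member was lower (Cox7b2, against 11.9% of all genes) and 6 were higher (Cox8a, Uqcr11, Cox6a1, Atp5j, Cox6b2 and Atp5d, against 15.2%). DESeq2 called 1 lower (2.63% of all genes) and 3 higher (4.68%), namely Cox7b2, Cox8a, Uqcr11 and Cox6a1, and limma-voom called 0 (0.0% of all genes in each direction). Without the library labelled KO 2, edgeR called 5 members lower (28.3% of all genes) and 9 higher (24.5%). These were Atp5g2, Ndufb11, Uqcrq, Ndufa7 and Cox7b2 in the lower direction, and Cox8a, Ndufv1, Sdha, Atp5sl, Atp5d, Atp5j, Ndufs7, Ndufa3 and Atp5s in the higher. Between KO 1 and KO 3 on the one hand and WT 1 and WT 2 on the other, 1 member was lower (Cox7b2, against 13.9% of all genes) and 1 higher (Cox8a, against 2.87%). Without WT 1 this comparison called 7 lower (27.5% of all genes) and 8 higher (25.9%). It called 0 members in each direction without KO 1 (5.62% and 0.503% of all genes) or without KO 3 (1.54% and 0.0%).

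The KO libraries all lay above all WT libraries for 26 of the 82 (13.2% of all genes tested) and all below for 4 (14.6% of all genes), but with counts scaled by the library total these became 4 and 8, against 10.7% and 15.5% of all genes. Without the library labelled KO 2 they were 44 and 12 on the TMM scale, against 37.5% and 40.4% of all genes. By complex, 13 of the 26 were in complex I, 8 in complex IV, 3 in complex V, 2 in complex III and 0 in complex II. For 27 members the library labelled KO 2 was inside the WT range, for 39 it was above and for 16 below.

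**Figure D3:**
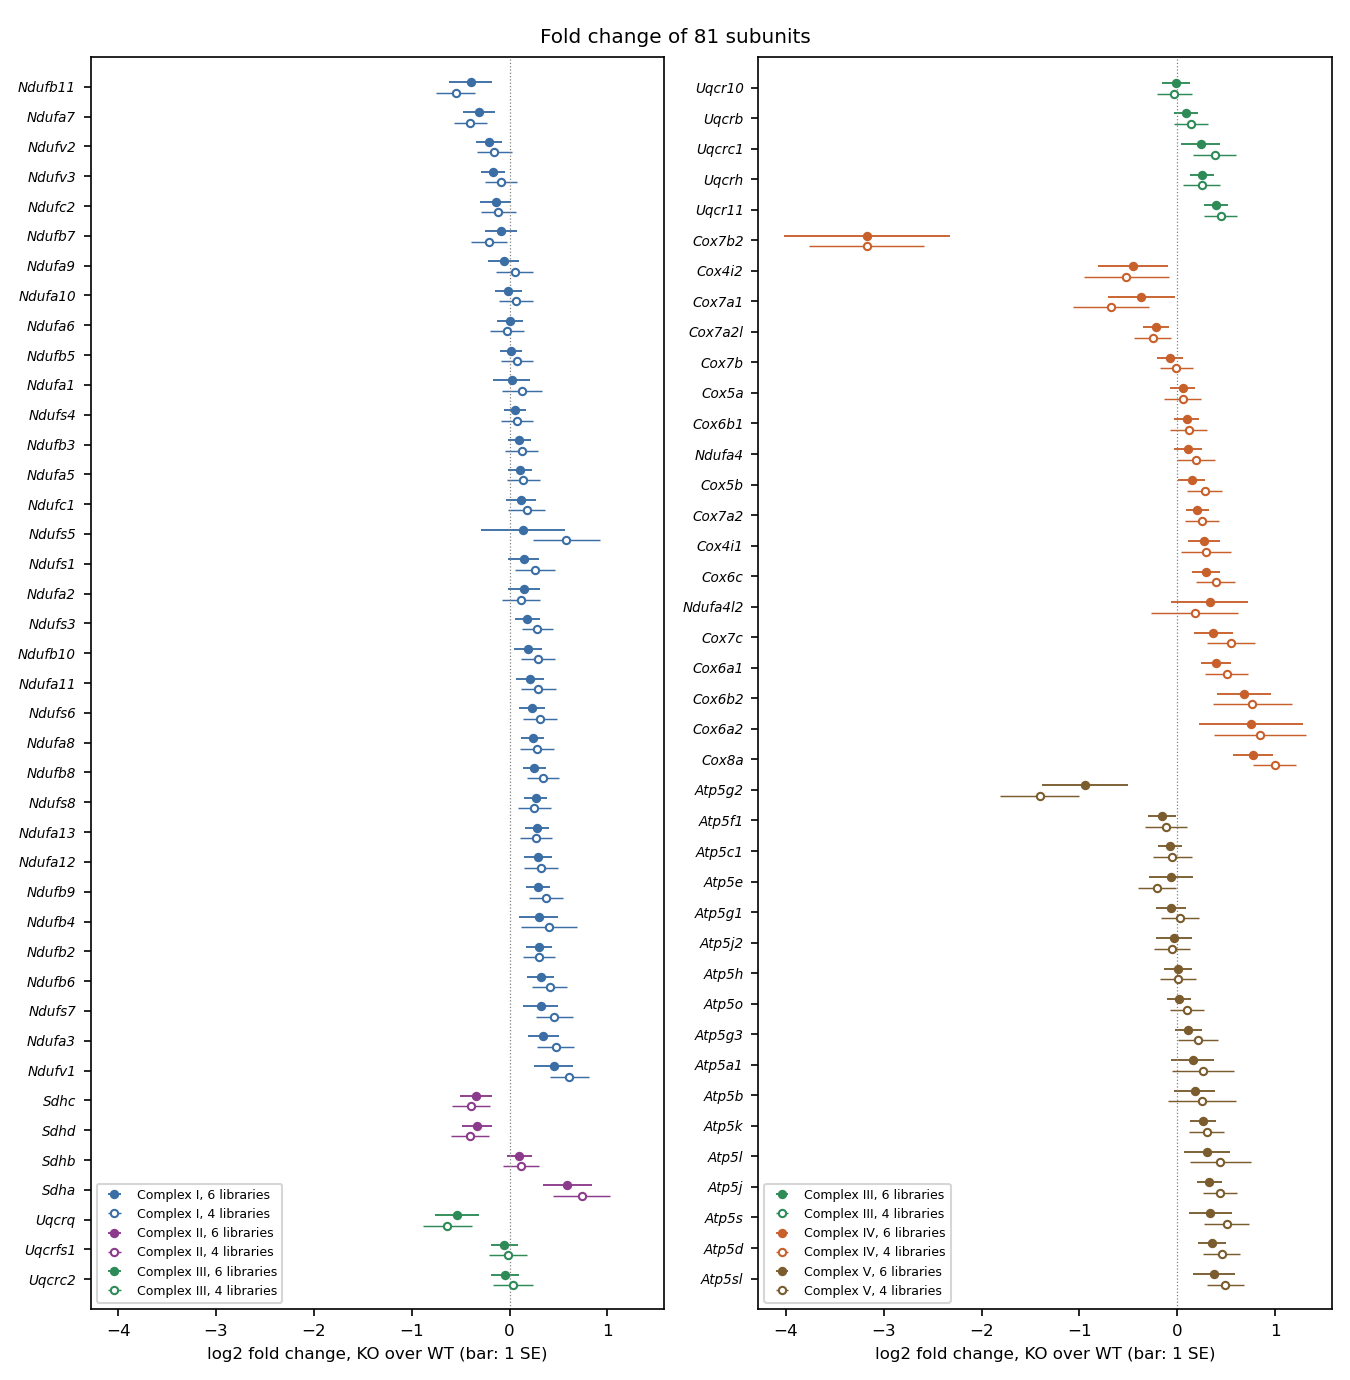
Log2 fold change (KO over WT, bar 1 SE) of 81 subunits by complex, ordered within each complex by the value over 6 libraries; filled points use 6 libraries and open points use KO 1 and KO 3 against WT 1 and WT 2. Most points lie between -0.5 and 0.5, and Cox7b2 (-3.17), Atp5g2 (-0.94), Sdha (0.59), Cox6b2 (0.68), Cox6a2 (0.75) and Cox8a (0.77) stand farther out.

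Complex I subunits had small values throughout, with all 35 within 0.5 of 0 over 6 libraries. The median log2 fold change was 0.14 over 6 libraries and 0.25 over 4. Ndufv1, which binds FMN and receives electrons from NADH, had the highest value. It was at 116, 98.8 and 104 CPM in WT 1, WT 2 and WT 3, and at 157, 110 and 173 CPM in KO 1, the library labelled KO 2 and KO 3. KO 1 and KO 3 were high and the library labelled KO 2 was in the WT range, and the log2 fold change of 0.45 ± 0.20 (SE) had an edgeR adjusted p of 0.190. Over 4 libraries it was 0.61 ± 0.20, with an adjusted p of 0.0783. Its neighbor in the NADH module, Ndufv2, went the other way at 133, 137 and 157 CPM in WT and 124, 130 and 120 CPM in KO libraries, which did not overlap (log2 fold change -0.21 ± 0.13, edgeR adjusted p = 0.279). Counts of Ndufv1 per count of Ndufv2 were accordingly 0.870, 0.723 and 0.658 in WT and 1.27, 0.845 and 1.44 in KO libraries.

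Among the core subunits of complex I encoded in the nucleus, Ndufs3 and Ndufs8 were above the WT range in all KO libraries, and Ndufv2 was below it. Ndufs3 was at 52.5, 54.4 and 56.8 CPM in WT and 62.8, 57.1 and 68.2 CPM in KO libraries, where the library labelled KO 2 was only just above WT 3 (log2 fold change 0.18 ± 0.13, edgeR adjusted p = 0.309). Of the 50-base stretches of Ndufs3, 35.8% occur in other genes. Ndufs1, the largest iron-sulfur subunit, was at 0.14 ± 0.16 and Ndufs7 at 0.32 ± 0.18. Of the 28 accessory subunits, 11 were above and 0 below in all KO libraries on the TMM scale, against 13.2% and 14.6% of all genes. Such counts depended on the scaling, as given above. The lowest was Ndufb11, an X-linked membrane arm subunit, at 97.8, 125 and 128 CPM in WT and 77.2, 116 and 76.1 CPM in KO libraries. KO 1 and KO 3 were below all WT libraries and the library labelled KO 2 was not, and the value of -0.40 ± 0.22 over 6 libraries (adjusted p = 0.239, edgeR) became -0.60 ± 0.16 without that library.

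Complex II, which is also an enzyme of the tricarboxylic acid cycle, was split between its parts. Sdha was at 322, 228 and 254 CPM in WT 1, WT 2 and WT 3, and at 436, 297 and 487 CPM in KO 1, the library labelled KO 2 and KO 3. The highest WT library exceeded the lowest KO library, so the groups overlapped. Its log2 fold change was 0.59 ± 0.25 (edgeR adjusted p = 0.186) over 6 libraries and 0.74 ± 0.29 (adjusted p = 0.111) over 4. Without the library labelled KO 2 it was 0.79 ± 0.21 with an adjusted p of 0.0255, and over all alternatives of the 6 libraries the adjusted p ranged from 0.0255 to 0.462.

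The membrane anchors Sdhc and Sdhd were lower in value where Sdha was higher. Sdhc was at 87.6, 106 and 106 CPM in WT and 78.8, 91.5 and 69.0 CPM in KO libraries, and Sdhd at 86.2, 109 and 98.7 CPM in WT and 72.2, 87.6 and 76.6 CPM in KO libraries. In both genes KO 1 and KO 3 were below all WT libraries, and the library labelled KO 2 was within the WT range. Neither passed the edgeR test (log2 fold change -0.34 ± 0.16 and -0.33 ± 0.15, adjusted p = 0.199 and 0.192). Sdhb, the iron-sulfur subunit between them, was at 98.8 ± 1.08 CPM in WT tumors (SD, n = 3), and at 98.8, 105 and 118 CPM in KO libraries, the lowest of which lay within the WT range. Counts of Sdha per count of Sdhc were 3.68, 2.16 and 2.40 in WT 1, WT 2 and WT 3, and 5.54, 3.24 and 7.06 in KO 1, the library labelled KO 2 and KO 3. This ratio does not depend on library scaling, and it differed more between KO 3 and the library labelled KO 2 than between the latter and WT 1.

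**Figure D4:**
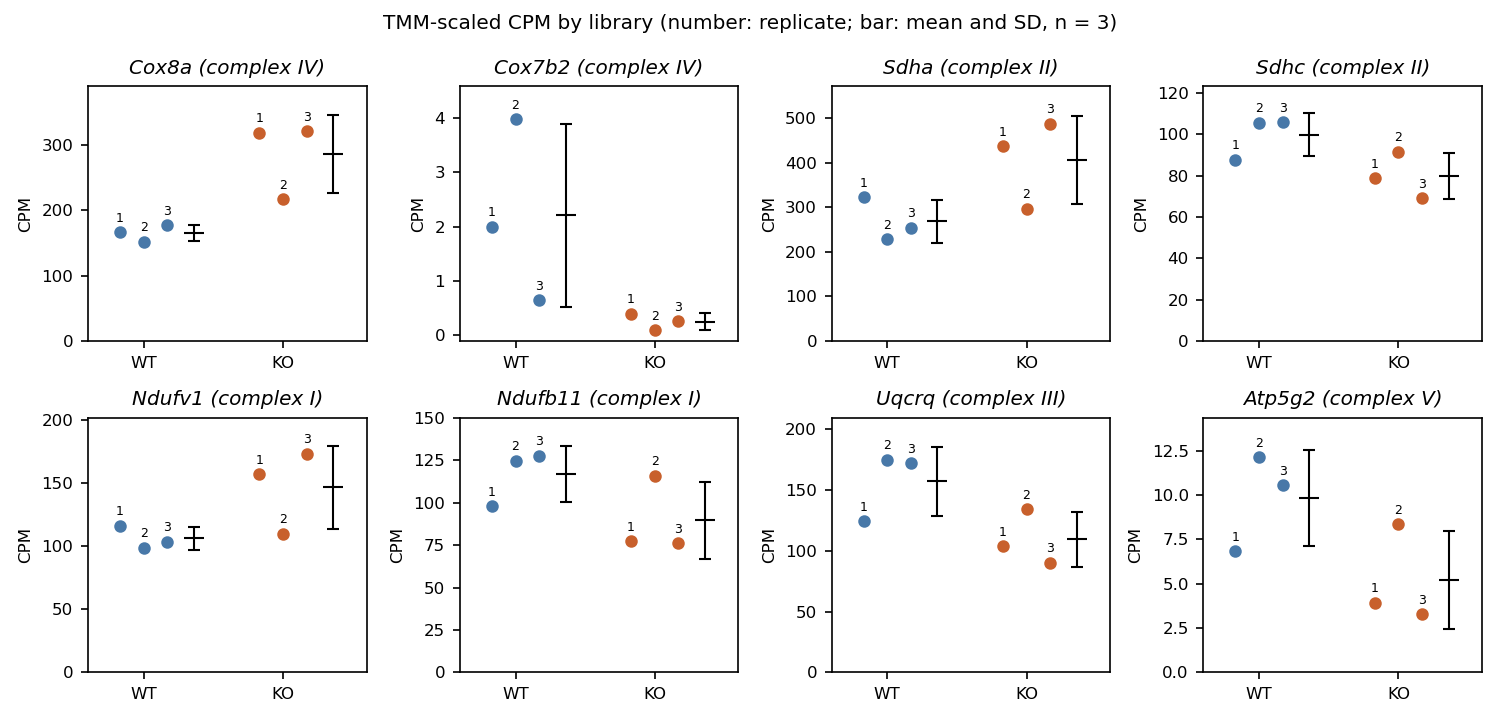
TMM-scaled CPM of 8 subunits in each library (numbers give the replicate, and the bar beside each group is the mean and SD, n = 3; KO 2 is the library labelled so). Cox8a and Cox7b2 do not overlap between WT and KO, whereas in Sdha, Sdhc, Ndufv1, Ndufb11, Uqcrq and Atp5g2 the library labelled KO 2 is inside the WT range and KO 1 and KO 3 lie outside it.

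Complex III was nearly level on the TMM scale, at a summed 867 ± 21.0 CPM in WT and 883 ± 31.7 CPM in KO tumors, which overlapped. As a share of all counts it was 0.0924% ± 0.0047 in WT and 0.0831% ± 0.0058 in KO tumors (SD, n = 3). By this measure KO 1 and KO 3 were below all WT libraries, and the library labelled KO 2 was within their range. The Rieske protein Uqcrfs1 and the core protein Uqcrc2 had log2 fold changes of -0.06 ± 0.14 and -0.04 ± 0.14, and the other core protein Uqcrc1 had 0.24 ± 0.20. The lowest and highest values of complex III were in small subunits, and none of the 8 passed in edgeR over the 6 or the 4 libraries. Uqcr11 was at 51.3, 45.7 and 55.5 CPM in WT and 69.3, 69.8 and 63.7 CPM in KO libraries, which did not overlap and included the library labelled KO 2 among the high ones. Its value of 0.40 ± 0.12 had an edgeR adjusted p of 0.184, and DESeq2 gave an adjusted p of 0.0376. Uqcrq was at 124, 175 and 172 CPM in WT and 104, 134 and 90.2 CPM in KO libraries, with the library labelled KO 2 inside the WT range (-0.54 ± 0.22, edgeR adjusted p = 0.184). Without that library its value was -0.69 ± 0.20, with an edgeR adjusted p of 0.0326. The 6 libraries varied 1.94-fold for Uqcrq.

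Complex IV held both ends of the range. Its summed level was 1710, 1735 and 1841 CPM in WT 1, WT 2 and WT 3, and it reached 2202, 1991 and 2122 CPM in KO 1, the library labelled KO 2 and KO 3, so each KO library was above each WT library. As a share of all counts, however, it was 0.188% ± 0.011 in WT and 0.198% ± 0.0136 in KO tumors (SD, n = 3), and the groups overlapped.

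Cox8a (chr19:7215153-7217616 in GRCm38, minus strand), the common form of the smallest subunit, had the highest value of the 82. It was at 166, 152 and 177 CPM in WT 1, WT 2 and WT 3, and at 319, 216 and 321 CPM in KO 1, the library labelled KO 2 and KO 3. All KO libraries were above all WT libraries, with the library labelled KO 2 the nearest to them. Over 4 libraries it rose by 0.99 ± 0.22 on the log2 scale, with an edgeR adjusted p of 0.0448, which was 0.0575 with total count scaling and 0.206 and 0.247 without KO 1 and without KO 3. Its alternatives there ranged from 0.000389 to 0.247. Over 6 libraries the value was 0.77 ± 0.20, with an adjusted p of 0.184. None of its 50-base stretches is shared with another gene, and no gene overlaps it on the opposite strand.

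Cox7b2 (chr5:71442824-71548205, minus strand), an isoform of subunit 7B known from testis, was at the other end. Its counts were 42, 77 and 13 in WT 1 to 3, and 7, 2 and 5 in KO 1, the library labelled KO 2 and KO 3. In CPM these were 2.00, 3.98 and 0.641 against 0.399, 0.0890 and 0.260, so that all KO libraries were below all WT libraries, but the WT libraries differed more from each other than WT 3 did from KO 1. Over 4 libraries it fell by 3.17 ± 0.59 on the log2 scale (edgeR adjusted p = 0.0365), and this call was lost without KO 1 (adjusted p = 0.0661) or without KO 3 (adjusted p = 0.145), in a range of 0.000878 to 0.145 over its alternatives. The constant form Cox7b had a log2 fold change of -0.07 and was at 96.7 to 118 CPM in WT libraries, a range that held all KO libraries.

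The other isoform pairs of complex IV were led by the common form in every library. There were 204 to 308 counts of Cox4i1 per count of Cox4i2, the form induced by low oxygen in lung, in WT libraries and 330.0 to 471 in KO libraries. These did not overlap, although Cox4i2 itself had only 17 to 38 counts per library. Cox4i1 was at 369, 336 and 319 CPM in WT and 452, 384 and 417 CPM in KO libraries (0.28 ± 0.17, edgeR adjusted p = 0.262). For Cox6a1 and the muscle form Cox6a2 the ratio was 72.9 to 199 in WT and 58.5 to 175 in KO libraries. Cox6a1 alone was at 177, 197 and 216 CPM in WT and 270, 249 and 264 CPM in KO libraries. These did not overlap, and the value was 0.39 ± 0.15 with an edgeR adjusted p of 0.184.

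Among the rest of complex IV, the testis form Cox6b2 was at 0.999, 0.879 and 1.09 CPM in WT and 1.41 to 1.83 CPM in KO libraries, without overlap (0.68 ± 0.28, edgeR adjusted p = 0.184). Its common partner Cox6b1 had a value of 0.10 ± 0.13. The muscle form Cox7a1 was at -0.37 ± 0.34, its common form Cox7a2 at 0.20 ± 0.12, and the supercomplex factor Cox7a2l at -0.22 ± 0.13. Ndufa4 was at 0.11 ± 0.14, and Ndufa4l2, which is induced by hypoxia, at 0.33 ± 0.39 with 33 to 88 counts per library. Cox5a and Cox5b, which lie on the matrix side of the enzyme, were at 0.05 ± 0.13 and 0.15 ± 0.14. None of these passed the edgeR test in either comparison.

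In complex V the catalytic head was near level. Atp5b was at 988, 863 and 944 CPM in WT and 1099, 976 and 1126 CPM in KO libraries, and the groups overlapped (0.18 ± 0.21, edgeR adjusted p = 0.526). Atp5a1, the alpha subunit, was at 0.16 ± 0.22 and Atp5c1, the rotating gamma subunit, at -0.07 ± 0.13. The delta subunit Atp5d of the central stalk was at 126, 113 and 120 CPM in WT and 162, 134 and 167 CPM in KO libraries. These did not overlap, as for the coupling factor Atp5j, at 94.9, 89.9 and 96.0 CPM in WT and 122, 105 and 130 CPM in KO libraries. Both had an edgeR adjusted p of 0.184. The gene for Atp5j overlaps that for Gabpa, an ETS factor, on the opposite strand.

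The membrane ring of complex V is built of subunit c, whose mature protein is the same from the genes Atp5g1, Atp5g2 and Atp5g3. By FPKM, Atp5g3 supplied 82.1% to 85.0% of the sum of the 3 transcripts in WT libraries and 86.2% to 88.1% in KO libraries. Atp5g1 supplied 10.6% to 11.9% and 9.70% to 11.0%, respectively. Atp5g2 was the smallest part, at 3.76%, 6.01% and 4.91% in WT 1, WT 2 and WT 3, and 1.87%, 4.11% and 1.52% in KO 1, the library labelled KO 2 and KO 3. In CPM, Atp5g2 was at 6.85, 12.1 and 10.6 in WT and 3.94, 8.37 and 3.28 in KO libraries, with the library labelled KO 2 within the WT range. Its log2 fold change of -0.94 ± 0.44 (edgeR adjusted p = 0.195) became -1.41 ± 0.40 (adjusted p = 0.0649) over 4 libraries and -1.44 ± 0.32 without the library labelled KO 2. Of its 50-base stretches, 14.8% occur in other genes. Neither Atp5g1 (-0.06 ± 0.15) nor Atp5g3 (0.11 ± 0.14) came close to the threshold.

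Genes that serve the same pathway were compared by lists. Of 42 assembly factors tested, 0 passed in either direction in either comparison in edgeR. With unadjusted p under 0.05 over 6 libraries, 4 were lower and 4 higher, against 11.9% and 15.2% of all genes. DESeq2 called 1 lower (Taco1) and 1 higher (Cox17) over 6 libraries, against 2.63% and 4.68% of all genes. Over 4 libraries it called 1 and 4, against 19.5% and 16.6% of all genes. In limma-voom 0 assembly factors were called in either comparison. Their median was -0.08 over 6 libraries, with Nubpl, which delivers iron-sulfur clusters to complex I, lowest at -0.71 and Lyrm7, a complex III factor, highest at 0.90. Of 13 genes of the tricarboxylic acid cycle, edgeR, DESeq2 and limma-voom called 0 over 6 libraries (3 lower at an unadjusted p under 0.05 in edgeR, against 11.9% of all genes). Over 4 libraries each called 1 lower, against 13.9%, 19.5% and 12.4% of all genes, respectively. This was Suclg2, the GTP-specific succinyl-CoA ligase subunit, at 69.3, 109 and 110 CPM in WT and 24.4, 63.0 and 20.9 CPM in KO libraries. The groups did not overlap, and Suclg2 fell by 1.99 on the log2 scale over 4 libraries (adjusted p = 0.0343). Sucla2, the ATP-specific counterpart of Suclg2, was the highest of the list there at 0.59. Of 14 genes for coenzyme Q synthesis and cytochrome c, the same tools called 0 in either comparison. At an unadjusted p under 0.05 in edgeR, 1 was lower over 6 libraries (against 11.9% of all genes) and 0 over 4. Pdss1 was lowest at -0.62 and Coq10a highest at 0.55 over 6 libraries.

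Regulators of mitochondrial biogenesis had a wide range of values, from -0.81 to 1.14 over 6 libraries. Of 14 tested, 0 passed over 6 libraries in edgeR and limma-voom, and 1 was higher in DESeq2 (Ppargc1b, against 4.68% of all genes). With unadjusted p under 0.05 in edgeR, 1 was lower and 3 higher, against 11.9% and 15.2% of all genes. Over 4 libraries 2 fell and 1 rose in edgeR, against 13.9% and 2.87% of all genes. Polg, the mitochondrial DNA polymerase, was at 190, 278 and 239 CPM in WT and 92.5, 223 and 93.5 CPM in KO libraries, and fell by 1.34 on the log2 scale over 4 libraries. Pprc1, a coactivator, fell by 0.86. The related coactivator Ppargc1a rose by 0.91, at 41.4, 29.8 and 29.5 CPM in WT and 65.8, 36.1 and 69.3 CPM in KO libraries. In each of the 3, KO 1 and KO 3 lay outside the WT range, and the library labelled KO 2 lay inside it for Polg and Ppargc1a. Nrf1 itself, whose motif is marked above in the Sdha promoter, was at 34.2, 45.5 and 43.8 CPM in WT and 22.8, 38.9 and 21.7 CPM in KO libraries (-0.85 over 4 libraries, edgeR adjusted p = 0.0558). The 13 subunits encoded in mitochondrial DNA were not among the deposited genes under the mt- symbols searched, and were not analysed here.

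The shifts in the subunits were small next to those in the neuron and proliferation lists. Over 4 libraries, 16 neuron genes had a median log2 fold change of 1.68, with values above 0 for all 16. Of these, 0 passed in edgeR and limma-voom and 15 in DESeq2, which called 16.6% of all genes higher. At an unadjusted p under 0.05 in edgeR, 13 were higher, against 3227 of all 16183 genes tested. The 20 proliferation genes had a median of -4.10, with 19 of 20 lower at an adjusted p under 0.05 (edgeR), against 13.9% of all genes. In the myelin list all 10 values were above 0, with a median of 1.12. Of these, 0 were called in edgeR and limma-voom, also at an unadjusted p under 0.05 in edgeR, and 2 in DESeq2 (against 16.6% of all genes). Over 6 libraries, the mean summed neuron level after TMM scaling in KO tumors was 2.71 times that in WT tumors (14254 ± 6647 against 5264 ± 2372 CPM, SD, n = 3). The mean proliferation level in KO tumors was 0.289 times that in WT tumors (809 ± 1102 against 2796 ± 794 CPM). In both lists the groups overlapped. Sums of the complexes on the same scale differed by 1.02-fold (complex III) to 1.19-fold (complexes II and IV). As shares of all counts, the means of complexes I, III and V were lower in KO than in WT tumors, and those of complexes II and IV were higher. None of the neuron markers was at 0 in a library. The part that the mix of cells had in the subunit values was not tested.

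**Figure D5:**
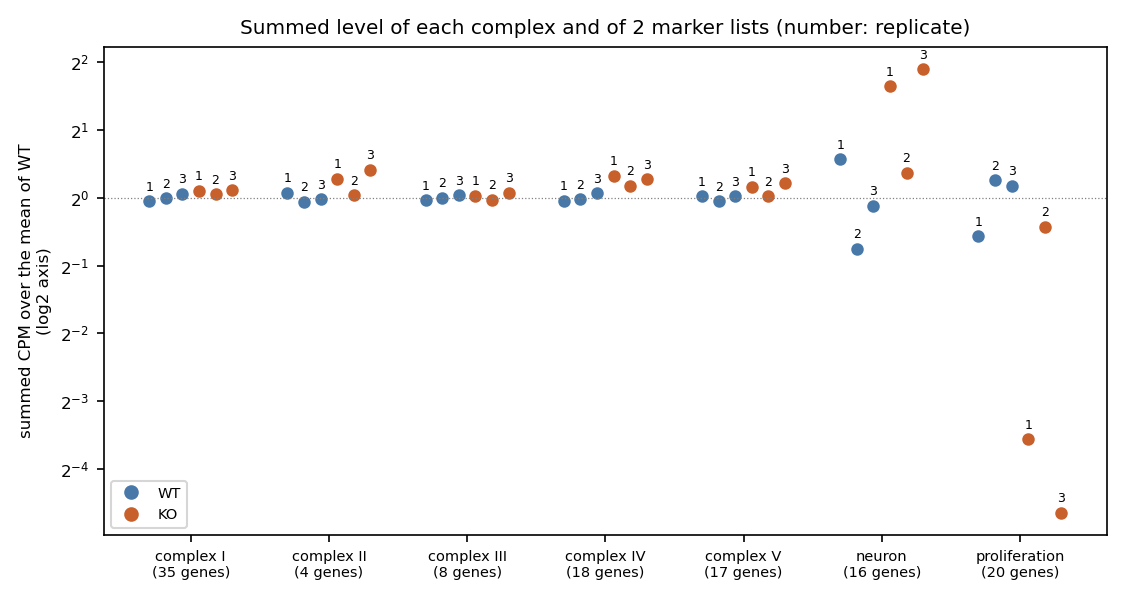
Summed TMM-scaled CPM of each complex and of the neuron and proliferation lists in each library, over the mean of the WT libraries (log2 axis; blue WT, orange KO; numbers give the replicate, and KO 2 is the library labelled so). The complexes vary less than the neuron and proliferation lists. Complex II ranges from 542 CPM in WT 2 to 750 CPM in KO 3, and complex IV from 1710 CPM in WT 1 to 2202 CPM in KO 1. The neuron list reaches 19550 CPM in KO 3, and the proliferation list falls to 112 CPM there.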

How the data were processed

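RNA-seq libraries of 3 tumors from WT and 3 from Esm1 KO hosts were compared. The authors deposited raw counts per gene and FPKM. Per the labels, the NEBNext Ultra kit, CASAVA 1.8.2, mm10 and edgeR were used, whereas the methods name the Ovation Ultralow kit, HTSeq with an Hg38 annotation and uniquely mapped reads. The deposited normalized values and the authors' fold changes, p-values and false discovery rates were not used. Nothing in the labels says that same-numbered tumors were paired, and p-values measure the spread between these tumors.

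Counts were filtered (filterByExpr, minimum count 10, minimum total 15) and tested over all genes with the quasi-likelihood test of edgeR 4.0.16 in R 4.3.3, with TMM factors and Benjamini-Hochberg adjustment (threshold 0.05), and with DESeq2 1.42.0 and limma-voom 3.58.1 as alternatives. SE is the log2 fold change over the square root of F. The procedure was tested on simulated data. A count of 0 would allow 3 counts, 0.134 to 0.171 CPM, for counting error only. No 2 libraries of a group were alike within sampling noise. All 82 members passed the filter and matched GENCODE vM21 (GRCm38). Promoters came from RefSeq (GRCm38.p6), in which 68 members matched. A subunit that is counted in the totals is not reported here by itself, and plots that name genes show the other 81. Members and lists were chosen with earlier results of these data known. Genes were named as extremes of each complex, by smallest p, or as core subunits and isoform pairs, and a few others were named after their values were seen. Lists of astrocyte, microglia and macrophage, endothelial, mural and T cell markers had medians over 4 libraries of 0.81, -1.60, -0.16, 0.25 and -2.74. Of the red blood cell markers only Alas2 was tested, at -0.73.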

Additional observations from a re-analysis of the deposited data

How the results depend on the processing

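Over 6 libraries, the count of members called lower or higher stayed at 0 under the scalings, filters, limma-voom and the replicate number as a block (median log2 fold change 0.119), and DESeq2 called 1 lower and 3 higher. Leaving out 1 library gave 0 to 5 lower and 0 to 9 higher, and the non-zero counts came without KO 2 alone. The median of 0.125 went to -0.0429 with total count scaling (all genes -0.174) and to 0.0787 to 0.200 when 1 library was left out. Same-numbered tumors did not deviate together in all pairs (correlations 0.602, 0.642 and -0.25), so the numbers were not taken to pair them, and the block changed no call. Over 4 libraries, with 1 called in each direction, total count scaling gave 2 lower (22.3% of all genes) and 0 higher (2.44%), DESeq2 2 lower (19.5%) and 3 higher (16.6%), and leaving out 1 library 0 to 7 lower and 0 to 8 higher. The median of 0.186 went to -0.0618 with total count scaling and 0.169 to 0.210 with 1 library left out. No paired analysis was possible for the 4 libraries because they share 1 number. With the alternatives added after seeing the data, members with all KO above all WT libraries numbered 4 (total count, 10.7% of all genes) and 44 (without KO 2, 37.5%), and those below 8 (15.5%) and 12 (40.4%). Depth limits Cox7b2, Cox4i2 and the other isoforms under 100 counts per library.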

Other observations

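The exact order of the libraries by the neuron genes was not more common among the subunits than among other genes. The summed neuron list ordered the libraries as KO 3, KO 1, WT 1, the library labelled KO 2, WT 3 and WT 2, from highest to lowest. Sdha, Ndufv1, Atp5b and Ndufa11 had this order in all 6 libraries, which were 4 of 82 members against 10.9% of all genes tested outside the neuron list. Uqcrq, Atp5g2 and Cox7a2l had the exact reverse, 3 of 82 against 6.63%. Sdhc came close to the reverse order, at 69.0 CPM in KO 3, 78.8 in KO 1, 87.6 in WT 1, 91.5 in the library labelled KO 2, and 106 in both WT 2 and WT 3. This comparison was chosen after the values were seen, and its 6 points share their libraries and scaling. An exact order is easily broken where changes are small, and 91.5% of members lay within 0.5 of 0, against 48.2% of all genes. The shares therefore do not show the part of neurons in the subunit values, which was not tested.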
